A study of Mus musculus with 4 samples.

Results

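The 29 genes described here encode enzymes and regulators of cholesterol and fatty acid synthesis, pathways that the SREBP transcription factors are known to control. They were taken by exact symbol from the 53801 genes of the count table, where each symbol had 1 gene ID. They comprise 7 genes of the mevalonate steps, 10 genes of the steps from farnesyl diphosphate to cholesterol, 4 genes of SREBP regulation and sterol transport and 8 genes of fatty acid supply, synthesis and desaturation. All 29 passed the filter on low counts.

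SREBPs are made as inactive precursors in the membrane of the endoplasmic reticulum. When sterols are scarce, Scap escorts them to the Golgi, where proteases free the part that enters the nucleus and raises transcription of the synthesis genes; when sterols are plentiful, the Insig proteins hold Scap back. In macrophages and osteoclast precursors the pathway supplies membrane cholesterol, and its isoprenoid branch feeds the lipid anchors of small GTPases. Farnesyl diphosphate synthase in that branch is the target of the nitrogen-containing bisphosphonates, drugs that block osteoclasts.

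The samples were osteoclast precursor cells, the myeloid cells from which osteoclasts form, of wild type C57BL/6 mice. The labels give 2 mice and precursor cells numbered 1 and 2, taken here as 1 mouse each. Each was kept for 3 h with PBS (phosphate-buffered saline, the vehicle) or with DKK1 at 200 ng/ml, a secreted Wnt antagonist, which gave 4 libraries in 2 pairs. The labels name no age, sex, tissue of origin or culture conditions. Library totals ranged from 41163663 to 53537927 counts. Markers of monocytes and macrophages were mostly abundant. Csf1r, the M-CSF receptor, had between 1969 and 2593 CPM (CPM, a gene's counts scaled to library size with edgeR's TMM factors). Tnfrsf11a, the receptor RANK, had between 198 and 204 CPM, and Cx3cr1 of the same list between 12.0 and 26.1 CPM. The neutrophil gene Ngp was also abundant, between 1310 and 2972 CPM. Ctsk, the main collagenase of mature osteoclasts, had 4.11 and 7.35 CPM in precursor cells 1 and 29.1 and 25.9 CPM in precursor cells 2. Acp5, another marker of mature osteoclasts, was far higher, with 329 and 354 CPM in precursor cells 1 and 475 and 441 CPM in precursor cells 2. Calcr, also an osteoclast marker, was at 0 in every library.

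The genes spanned a wide range of levels. On the authors' deposited FPKM values, which divide by gene length and library size, Acly had the highest mean over the 4 libraries at 39.8 FPKM; it encodes ATP citrate lyase, which makes the cytosolic acetyl-CoA used by both pathways. Srebf2, the transcription factor that favours cholesterol genes, came next at 35.0 FPKM. Insig1, the sterol-dependent anchor of Scap, had 21.3 FPKM, Fads1, a desaturase of polyunsaturated fatty acids, 19.9 FPKM, and Hmgcs1, which makes HMG-CoA, 19.8 FPKM. The lowest means were 0.841 FPKM for Elovl6, which lengthens long-chain fatty acids, 0.915 FPKM for Acss2, which makes acetyl-CoA from acetate, and 1.84 FPKM for Lss, which closes squalene epoxide into lanosterol. Neighbours in this order, such as Fads1 and Hmgcs1, had ranges over the 4 libraries that overlapped.

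**Figure D1:**
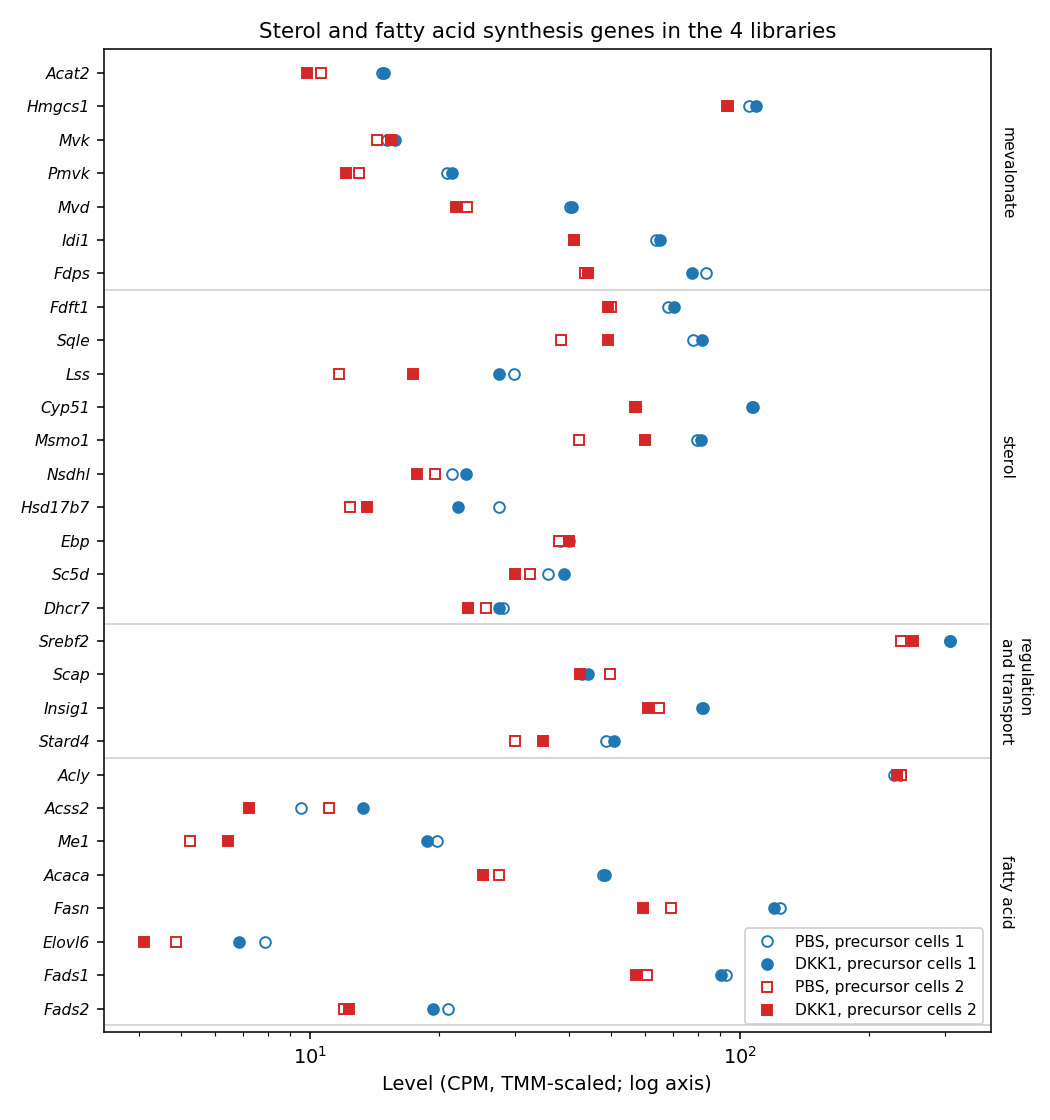
Level of each of the 29 genes in the 4 libraries, in CPM on a log axis, grouped by role; circles are precursor cells 1, squares precursor cells 2, open symbols PBS and filled symbols DKK1. For most genes the open and filled symbols of a pair lie close together and the squares lie to the left of the circles.

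The first comparison asked whether DKK1 changes these genes within 3 h. None was called: edgeR's quasi-likelihood test, with precursor cells as a term, passed 0 of the 29 at an adjusted p under 0.05, and 0.0515% of the 17462 genes tested passed it in either direction. At an unadjusted edgeR p under 0.05 the count was also 0 of 29, against 781 of the 17462 genes tested. DESeq2 and limma-voom called 0 of the 29. The median log2 change of the 29 was 0.00, against 0.00 for all genes tested, with 15 positive values, and the single values ran from -0.22 for Elovl6 to 0.25 for Msmo1. The standard errors ran from 0.05 to 0.27 on the log2 scale. Summed over the 29 genes, the level was 1888 CPM with PBS and 1900 CPM with DKK1 in precursor cells 1, and 1376 and 1390 CPM in precursor cells 2.

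Cyp51, the lanosterol demethylase, had 107 CPM with PBS and 107 CPM with DKK1 in precursor cells 1, and 57.3 and 57.1 CPM in precursor cells 2. The treated and control libraries of a pair were nearly equal, and the log2 change was -0.01 (95% CI -0.18 to 0.16, n = 2 pairs; edgeR adjusted p = 0.998). Srebf2 had 308 and 307 CPM in precursor cells 1 and 237 and 252 CPM in precursor cells 2, with a log2 change of 0.04 (95% CI -0.09 to 0.17; edgeR adjusted p = 0.97). Insig1, itself a sensitive SREBP target, had 81.6 and 82.2 CPM in precursor cells 1 and 64.7 and 61.2 CPM in precursor cells 2. Its log2 change was -0.03 (95% CI -0.21 to 0.15; edgeR adjusted p = 0.985). For Acly the log2 change was 0.01, with a 95% CI of -0.12 to 0.15. The 95% intervals of these 4 genes stay within a 1.5-fold change in either direction.

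Of the 7 mevalonate genes, 0 were called, and their log2 changes lay between -0.05 and 0.08. Hmgcs1 had 105 CPM with PBS and 109 CPM with DKK1 in precursor cells 1, and 93.7 and 93.2 CPM in precursor cells 2 (log2 change 0.02, 95% CI -0.14 to 0.19). Fdps, the farnesyl diphosphate synthase, had 83.3 and 77.3 CPM, then 43.6 and 44.2 CPM (log2 change -0.05, 95% CI -0.24 to 0.15). Both genes went opposite ways in the 2 pairs, by at most 0.11 on the log2 scale. The others were Acat2 (-0.03), which joins acetyl-CoA units, Mvk (0.08) and Pmvk (-0.02), the kinases of mevalonate, Mvd (-0.03), the decarboxylase, and Idi1 (0.01), the isomerase.

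Among the 10 genes from farnesyl diphosphate to cholesterol, 0 were called, and the largest values were those of Msmo1 and Sqle. Msmo1, the sterol C4-methyl oxidase, had 79.4 CPM with PBS and 81.0 CPM with DKK1 in precursor cells 1, and 42.1 and 60.1 CPM in precursor cells 2. The difference lay almost wholly in precursor cells 2: the log2 change was 0.03 in the first pair and 0.51 in the second, 0.25 in the fit over both pairs (95% CI -0.06 to 0.56; edgeR adjusted p = 0.959). Sqle, squalene epoxidase, a rate-limiting step of sterol synthesis, had 77.8 and 81.5 CPM, then 38.3 and 49.3 CPM, which gave 0.07 and 0.36 in the pairs and 0.20 in the fit (95% CI -0.04 to 0.44; edgeR adjusted p = 0.959). Lss had 29.9 and 27.6 CPM, then 11.7 and 17.4 CPM, so that it was lower with DKK1 in the first pair (log2 -0.11) and higher in the second (0.57). Hsd17b7, the 3-ketosteroid reductase of the C4-demethylation steps, had the same signs as Lss. It went from 27.4 to 22.1 CPM in the first pair and from 12.4 to 13.6 CPM in the second. For the rest the fitted log2 changes were 0.01 for Fdft1, squalene synthase, 0.00 for Nsdhl, a C4-decarboxylating dehydrogenase, 0.07 for Ebp, the sterol isomerase, 0.01 for Sc5d, the C5-desaturase, and -0.08 for Dhcr7, the last reductase.

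Within single pairs, the authors' deposited tables list an FDR for 1 library against 1, from a test that is not stated. In the authors' deposited table of precursor cells 1, 2 of the 29 genes had an FDR under 0.05 (19% of the 13253 genes listed there): Acss2 with a log2 ratio of 0.45 and Hsd17b7 with -0.30. In that of precursor cells 2, 6 of the 29 did (16.7% of the 13175 genes listed). The authors' deposited log2 ratios there were 0.54 for Lss, 0.51 for Msmo1 and 0.36 for Sqle, and -0.55 for Acss2, -0.22 for Scap and -0.21 for Fasn. Only Acss2 had an FDR under 0.05 in both authors' deposited tables, with opposite signs. None of the 29 was marked as significant in the authors' deposited tables, which mark 0.921% and 0.987% of their genes. These shares of the members were below and near those of all genes listed.

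Of the genes of SREBP regulation and transport, 0 were called. Scap had 43.0 and 44.3 CPM in precursor cells 1 and 49.8 and 42.5 CPM in precursor cells 2, with a fitted log2 change of -0.09 (95% CI -0.33 to 0.16). Stard4, which carries cholesterol between membranes, had 48.7 and 51.0 CPM, then 30.0 and 34.8 CPM, higher with DKK1 in both pairs (0.07 and 0.22) with a fitted log2 change of 0.14 (95% CI -0.09 to 0.36; edgeR adjusted p = 0.959).

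Of the 8 fatty acid genes, 0 were called. Fasn, fatty acid synthase, had 124 CPM with PBS and 120 CPM with DKK1 in precursor cells 1, and 69.1 and 59.5 CPM in precursor cells 2. It was lower with DKK1 in both pairs, by -0.04 and -0.21, with a fitted log2 change of -0.12 (95% CI -0.31 to 0.06; edgeR adjusted p = 0.959). Acaca, acetyl-CoA carboxylase, which makes the malonyl-CoA that Fasn uses, had a log2 change of -0.05. Elovl6 had 7.86 and 6.84 CPM, then 4.89 and 4.12 CPM, lower in both pairs (log2 change -0.22, 95% CI -0.67 to 0.23). Acss2 had 9.53 and 13.3 CPM, then 11.1 and 7.22 CPM: it was higher with DKK1 in the first pair and lower in the second, and its fitted log2 change of 0.01 has the widest interval of the 29 (95% CI -0.65 to 0.68). The log2 changes were -0.06 for Fads1, -0.05 for Fads2, the delta-6 desaturase, and 0.04 for Me1, the malic enzyme that supplies NADPH.

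**Figure D2:**
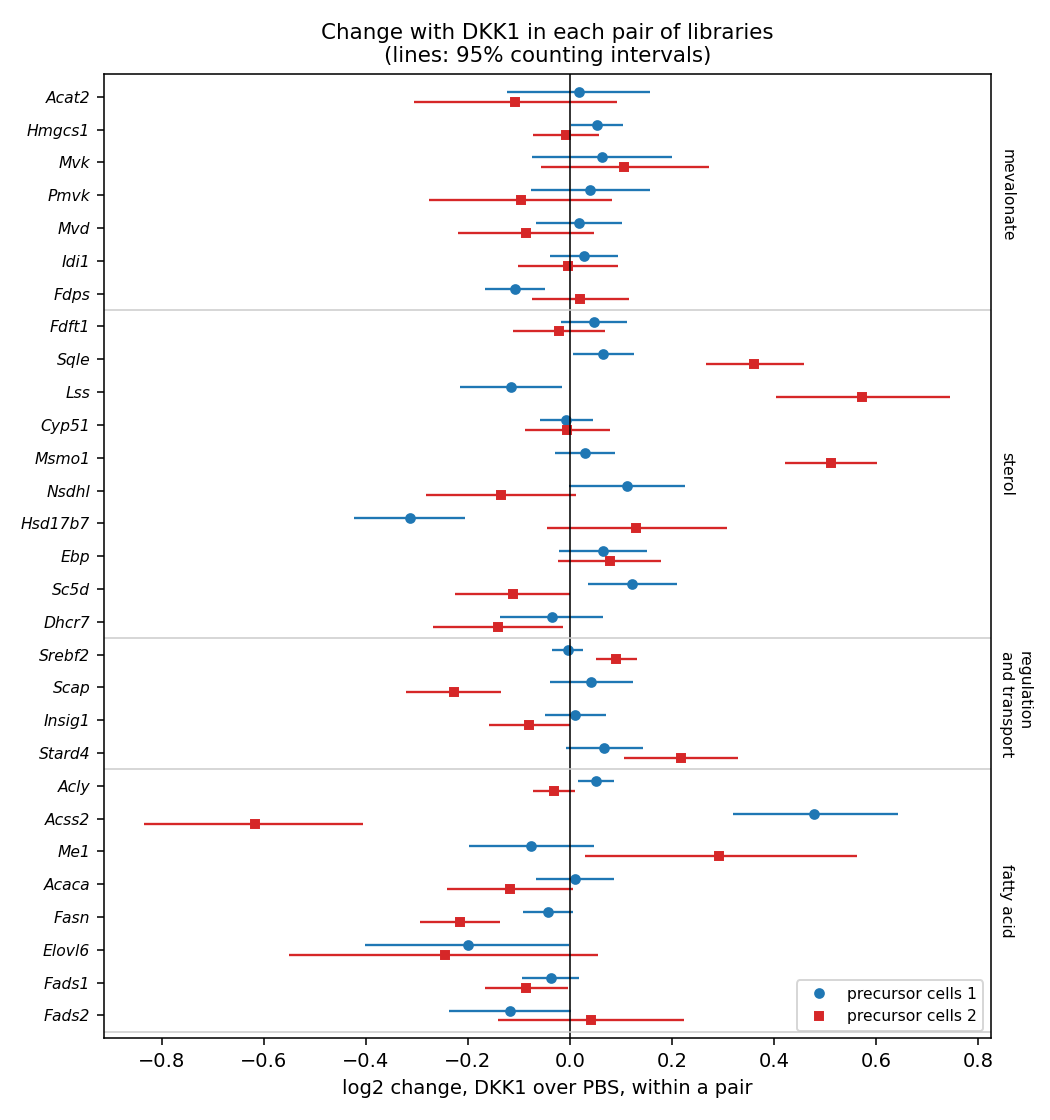
Log2 change with DKK1 over PBS within each pair for the 29 genes (prior count 2); lines are exact 95% intervals of the ratio of 2 counts and cover counting error only. Most values lie near 0, Sqle (0.36), Lss (0.57) and Msmo1 (0.51) stand to the right in precursor cells 2 alone, and Acss2 has opposite values of 0.48 and -0.62.

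The second comparison set precursor cells 2 against precursor cells 1 in the same fit. Here the pathway differed: 20 of the 29 genes were lower in precursor cells 2 (edgeR adjusted p under 0.05; 15.9% of all genes tested were called lower) and 0 were higher (17.9% of all genes tested). Their median log2 difference was -0.63, a level 1.55-fold higher in precursor cells 1, against 0.00 for all genes tested. In CPM, 24 of the 29 had both libraries of precursor cells 2 below both of precursor cells 1 (35.3% of all genes tested). With 2 libraries per preparation, a gene that is called will mostly show such a gap, so the gap is no separate support for a call. The median difference was -0.63 between the PBS libraries and -0.64 between the DKK1 libraries. Each preparation is taken here as 1 mouse, and the PBS and DKK1 libraries stand in for replicates. The test therefore compares these 2 preparations only, and mouse, culture and RNA preparation cannot be told apart.

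Of the mevalonate genes, 5 of 7 fell in precursor cells 2. Fdps was 1.83-fold higher in precursor cells 1 (log2 -0.87, 95% CI -1.07 to -0.67; edgeR adjusted p = 0.000744), with no overlap between the 77.3 and 83.3 CPM of precursor cells 1 and the 43.6 and 44.2 CPM of precursor cells 2. Mvd had 40.2 and 40.8 CPM in precursor cells 1 and 23.2 and 21.8 CPM in precursor cells 2 (log2 -0.85, edgeR adjusted p = 0.00167). Neither gene's libraries overlapped between the preparations, which a call mostly implies. Pmvk went from 20.8 and 21.4 CPM to 13.0 and 12.1 CPM (log2 -0.75), and Idi1 from 63.8 and 65.0 CPM to 41.2 and 41.1 CPM (log2 -0.65). Acat2 had 14.7 and 14.9 CPM against 10.6 and 9.84 CPM (log2 -0.53, edgeR adjusted p = 0.0301), a call that was lost with DESeq2 (adjusted p = 0.119) and without any 1 library. Mvk did not pass the test, with 15.1 and 15.8 CPM against 14.3 and 15.4 CPM (log2 -0.05, 95% CI -0.36 to 0.25; edgeR adjusted p = 0.773). Neither did Hmgcs1, whose log2 difference of -0.19 (95% CI -0.35 to -0.03) had an edgeR adjusted p of 0.0738.

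Of the sterol genes, 6 of 10 fell. Cyp51 was 1.87-fold higher in precursor cells 1 (log2 -0.90, 95% CI -1.07 to -0.73), and had the smallest edgeR adjusted p of the 29 (0.000376). Sqle had a log2 difference of -0.87 (95% CI -1.11 to -0.63; edgeR adjusted p = 0.00163), Lss one of -0.99 (95% CI -1.43 to -0.54; edgeR adjusted p = 0.00955), and Hsd17b7, Msmo1 and Fdft1 had -0.92, -0.67 and -0.48. The calls of Msmo1 and Hsd17b7 were lost when a library was left out, Msmo1 without either library of precursor cells 1 (edgeR adjusted p = 0.0655 and 0.0701) and Hsd17b7 without either library of precursor cells 2 (edgeR adjusted p = 0.0606 and 0.0541). In no gene of this group that was called did the preparations overlap, a gap that a call mostly implies. The preparation difference of Lss was -1.35 between the PBS libraries and -0.67 between the DKK1 libraries, and that of Msmo1 -0.91 and -0.43. The late steps were not called: the log2 differences were -0.26 for Nsdhl, 0.00 for Ebp, -0.26 for Sc5d and -0.18 for Dhcr7. Ebp had 38.2 and 39.9 CPM in precursor cells 1 and 37.9 and 40.0 CPM in precursor cells 2, and its libraries overlapped. Nsdhl (21.4 and 23.1 CPM against 19.5 and 17.8 CPM), Sc5d (35.8 and 38.9 against 32.5 and 30.0 CPM) and Dhcr7 (28.2 and 27.5 against 25.7 and 23.3 CPM) had narrow gaps between the preparations.

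Of the regulators, Srebf2 (log2 -0.33, 95% CI -0.46 to -0.20; edgeR adjusted p = 0.0063), Insig1 (-0.38, edgeR adjusted p = 0.0118) and Stard4 (-0.62, edgeR adjusted p = 0.00419) fell in precursor cells 2. The call of Insig1 was lost without the DKK1 library of precursor cells 2 (edgeR adjusted p = 0.0599). Scap had a log2 difference of 0.08 and was not called (95% CI -0.17 to 0.32).

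Of the fatty acid genes, 6 of 8 fell, and Me1 had the largest difference of the 29. It had 19.8 and 18.8 CPM in precursor cells 1 and 5.25 and 6.44 CPM in precursor cells 2, a level 3.28-fold higher in precursor cells 1 (log2 -1.71, 95% CI -2.11 to -1.32; edgeR adjusted p = 0.000801). Fasn had a log2 difference of -0.93 (95% CI -1.11 to -0.74; edgeR adjusted p = 0.000487), with both libraries of precursor cells 2 below both of precursor cells 1. A near-identical pseudogene of Me1, Gm7049, was counted 120 and 195 times in the libraries of precursor cells 1 and was at 0 in both of precursor cells 2; its part in the result was not tested. Acaca went from 48.1 and 48.4 CPM to 27.4 and 25.3 CPM (log2 -0.87), Fads1 from 92.5 and 90.1 CPM to 60.8 and 57.3 CPM (log2 -0.63), and Fads2 from 20.9 and 19.3 CPM to 12.0 and 12.4 CPM (log2 -0.72). These genes did not overlap between the preparations, which again follows mostly from their being called. Elovl6 had a log2 difference of -0.71 (edgeR adjusted p = 0.0339), and its call was lost with DESeq2 (adjusted p = 0.147) and without each library other than the DKK1 library of precursor cells 1. Acly, the most abundant per length, was level in all libraries at 228, 236, 236 and 231 CPM (log2 0.01, 95% CI -0.12 to 0.15), and Acss2 was not called (log2 -0.33, 95% CI -0.999 to 0.34).

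**Figure D3:**
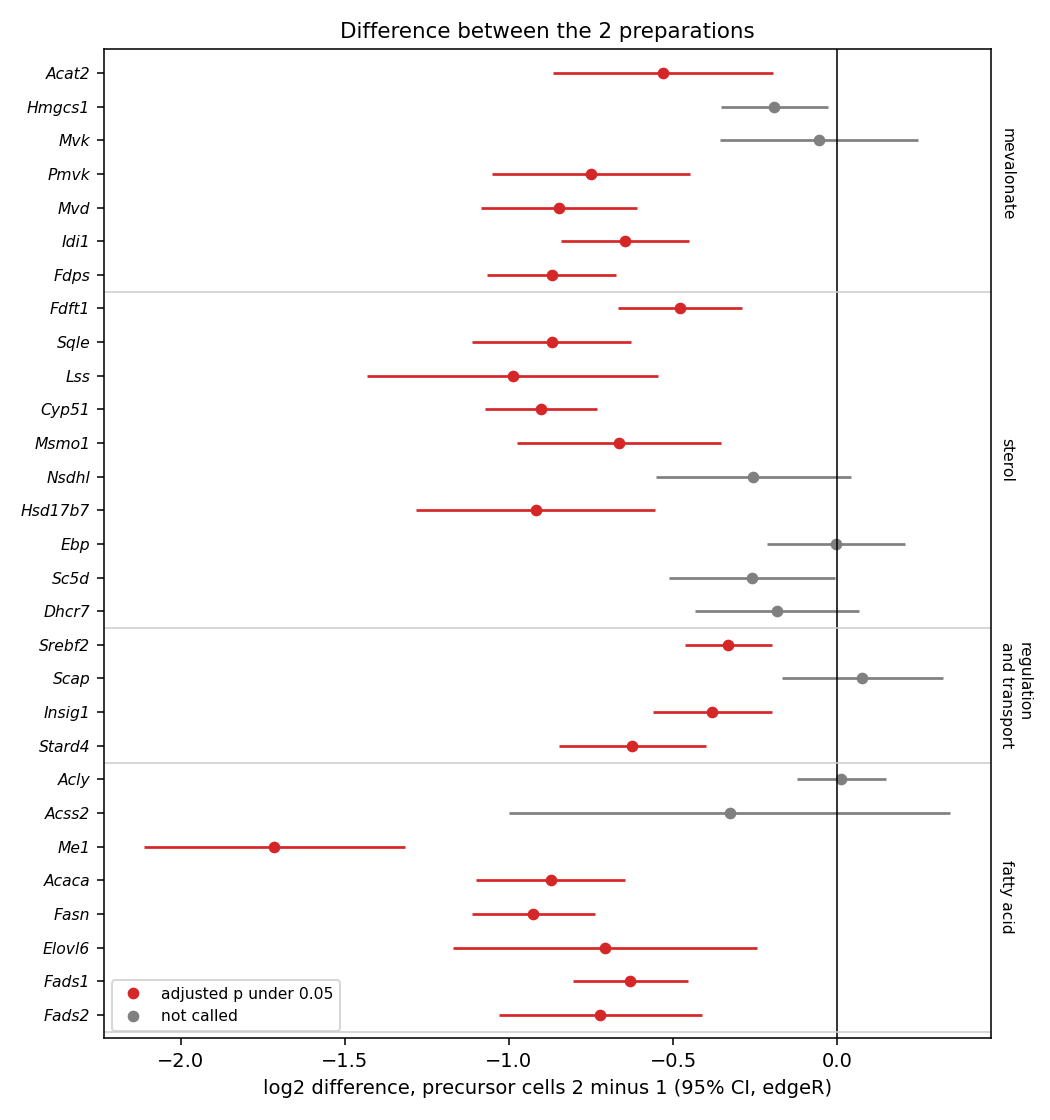
Log2 difference of precursor cells 2 minus 1 with its 95% CI from edgeR, for 29 genes grouped by role; red points passed the adjusted p threshold and grey points did not. The 20 red points lie between -1.71 for Me1 and -0.33 for Srebf2, and the 9 grey points, which include 4 late sterol steps, lie between -0.33 and 0.08.

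**Figure D4:**
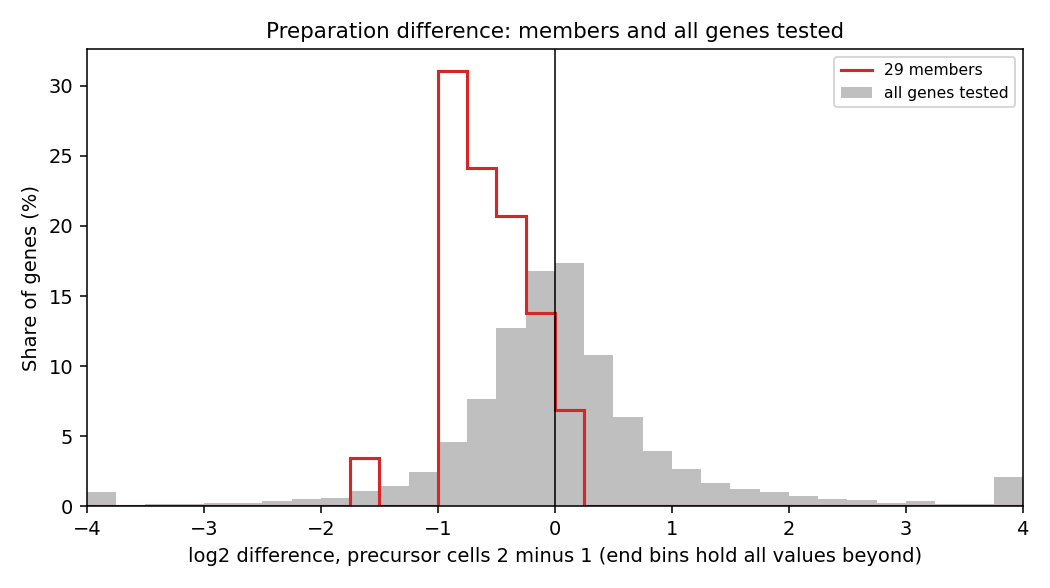
Share of genes in bins of the log2 difference between precursor cells 2 and 1, for all 17462 genes tested (grey bars) and the 29 pathway genes (red line). The end bins hold all values beyond; the median of all genes is 0.00, that of the pathway genes -0.63.

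Other measures differed between the preparations as well. Over all genes tested, 15.9% were called lower and 17.9% higher in precursor cells 2. All 7 neutrophil markers were higher in precursor cells 2 (edgeR adjusted p under 0.05; summed level up to 4728 CPM in precursor cells 1, at least 8795 CPM in precursor cells 2), and all 6 B cell markers were lower (88.5 and 146 CPM against 25.4 and 25.8 CPM). Of 9 monocyte and macrophage markers 4 were higher and 1, Lyz2, was lower, and the summed level of the list was 31492 and 31699 CPM in precursor cells 1 against 22868 and 23389 CPM in precursor cells 2, most of it from Lyz2. Of 5 erythroid markers 4 were higher in precursor cells 2, with a summed level of 76.0 and 53.3 CPM in precursor cells 1 against 125 and 97.4 CPM. Of the 5 mature osteoclast markers tested, Ctsk and Acp5 were higher and Dcstamp was lower. Of 5 stromal and osteoblast markers tested, Col1a1 was higher and Ibsp was lower. Of the 4 adipocyte markers, 3 were at 0 in all libraries and the fourth, Adipoq, was at most 0.310 CPM. In bulk RNA, fewer cells of a type and less RNA per cell cannot be told apart, and the part of these markers in the pathway difference was not tested.

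The list of 40 other genes of the pathway held genes called in both directions between the preparations. With DKK1, 0 of the 35 tested were called by edgeR, and the median log2 change was -0.03. An unadjusted edgeR p under 0.05 was found for 3 of the 35, against 781 of the 17462 genes tested. The smallest p belonged to Tecr (log2 -0.27), which encodes a reductase of fatty acid elongation, and Elovl1 (log2 -0.43), an elongase of very long chains. Between the preparations, 16 of the 35 were lower in precursor cells 2 (15.9% of all genes tested) and 4 higher (17.9% of all genes tested). Their median log2 difference was -0.18. Scd2 and Scd1, the stearoyl-CoA desaturases, had log2 differences of -1.37 and -2.04 (edgeR adjusted p = 8.85e-05 and 0.001). Scd2 went from 110 and 119 CPM in precursor cells 1 to 41.4 and 47.1 CPM in precursor cells 2. Genes called higher in precursor cells 2 included 3 of fatty acid binding, activation or sterol storage: the fatty acid binding protein Fabp5 had a log2 difference of 1.71, the acyl-CoA synthetase Acsl1 1.59 and the sterol acyltransferase Soat1 0.41 (edgeR adjusted p = 8.68e-06, 4.53e-05 and 0.00504).

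Promoters are shown for 4 genes: Hmgcs1, which holds a sterol element, Fasn and Msmo1, which fell together in precursor cells 2, and Mvk, which was not called. RefSeq windows of 250 bases before to 50 after the start site (GRCm38.p6) were found for 24 of the 29 genes. The core of the sterol regulatory element, TCACNCCAC, was found on either strand in 1 of these 24 genes (4.17%) and in 1.44% of all genes with a window. The CCAAT box of NF-Y, a partner of SREBPs, was found on either strand in 19 of 24 genes (79.2%) and in 41.1% of all genes. In each sequence, read 5′ to 3′ on the gene's strand, capitals mark CCAAT boxes on either strand (CCAAT or ATTGG) and, in Hmgcs1, the sterol element core, which starts 137 bases before the start site and overlaps no CCAAT box. In Fasn a pair of boxes overlap by 2 bases. Hmgcs1 lies at chr13:119690101-119690400 (plus strand), Mvk at chr5:114444019-114444318 (plus), Msmo1 at chr8:64733529-64733828 (minus) and Fasn at chr11:120824498-120824797 (minus).
Hmgcs1: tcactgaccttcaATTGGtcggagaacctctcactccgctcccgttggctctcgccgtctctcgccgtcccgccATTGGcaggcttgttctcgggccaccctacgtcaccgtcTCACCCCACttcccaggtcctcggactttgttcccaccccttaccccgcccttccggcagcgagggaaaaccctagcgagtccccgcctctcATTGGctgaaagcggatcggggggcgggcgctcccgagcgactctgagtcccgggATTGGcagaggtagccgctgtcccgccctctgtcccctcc
Mvk: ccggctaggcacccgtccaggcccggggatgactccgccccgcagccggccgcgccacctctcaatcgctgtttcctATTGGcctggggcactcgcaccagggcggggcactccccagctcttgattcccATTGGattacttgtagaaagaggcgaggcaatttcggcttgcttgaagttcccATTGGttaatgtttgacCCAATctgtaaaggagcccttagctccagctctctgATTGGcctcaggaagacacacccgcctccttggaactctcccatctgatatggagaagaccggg
Msmo1: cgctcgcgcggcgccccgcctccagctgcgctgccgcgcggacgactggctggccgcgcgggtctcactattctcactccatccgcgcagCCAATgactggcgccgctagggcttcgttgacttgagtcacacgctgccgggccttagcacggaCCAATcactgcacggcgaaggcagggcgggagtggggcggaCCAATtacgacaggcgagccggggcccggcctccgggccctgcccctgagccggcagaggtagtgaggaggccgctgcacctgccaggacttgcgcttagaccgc
Fasn: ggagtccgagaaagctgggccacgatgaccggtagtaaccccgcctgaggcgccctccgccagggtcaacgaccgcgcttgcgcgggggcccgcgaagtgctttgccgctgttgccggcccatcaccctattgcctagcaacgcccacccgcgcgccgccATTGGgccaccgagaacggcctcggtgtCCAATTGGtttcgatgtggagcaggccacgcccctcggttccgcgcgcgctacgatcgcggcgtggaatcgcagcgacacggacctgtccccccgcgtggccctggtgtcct

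The Mvk window held 5 CCAAT boxes and the Hmgcs1 window 4, and neither gene was called between the preparations. The windows of Msmo1 and Fasn held 3 boxes each, and both genes were lower in precursor cells 2. Those of Acat2, Acaca, Elovl6 and Fads2 held 0 boxes, and these genes were lower as well. Scap also held 0 and was not called. The only Acaca window, chr11:84195188-84195487, lies inside the gene, whose model runs from 84129672 to 84401651. It therefore does not describe the start of that model. A relation between boxes and the preparation difference was not tested. A match describes these letters only.

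Reads of some members could be shared with other gene models, since no label states whether the counting used strand. Exons of another gene overlapped, or a near-identical transcript existed, for 14 of the 29, and 7 held under 90% of the counts of these models together. Fdft1 overlaps Ctsb on the opposite strand, a cathepsin gene with 1674806 counts over the 4 libraries against 11916 for Fdft1, and Acat2 is near-identical to Acat3 (2510 and 2515 counts). Acss2 overlaps Gss (2035 and 3339 counts), whose log2 change with DKK1 came to 0.33 in the first pair and 0.03 in the second. Cyp51 overlaps Akap9 (7976 counts), whose preparation difference was 0.22. Without these 7 genes, 15 of the remaining 22 were lower in precursor cells 2, with a median log2 difference of -0.64. On mm10 (GRCm38), with GENCODE M21 positions, Sqle (ENSMUSG00000022351) lies on chromosome 15 from 59315077 to 59331192, Fasn (ENSMUSG00000025153) on chromosome 11 from 120805846 to 120824547 and Srebf2 (ENSMUSG00000022463) on chromosome 15 from 82147181 to 82205379, and these 3 protein-coding genes share exons or sequence with no other model. Me1 (ENSMUSG00000032418), on chromosome 9 from 86581371 to 86695953, held 83.6% of the counts of its models.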

How the data were processed

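RNA of 4 libraries (2 PBS, 2 DKK1; cells of 2 mice) was sequenced, and per the submitters' processing notes reads were handled with fastp and HISAT2 on mm10; the counting program is not given in the sources used here. The authors deposited raw counts for each gene in 1 table. A further table per pair gives, per the file headers, the log2 ratio of DKK1 over PBS, its p-value and FDR by an unnamed test, and FPKM values, which the authors scaled to gene length and depth. FPKM served only to order levels.

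Counts of all genes were tested with edgeR 4.0.16 in R 4.3.3 (quasi-likelihood with estimateDisp, TMM, filterByExpr by treatment, 17462 of 53801 genes), with terms for precursor cells and treatment, 1 residual degree of freedom, and two-sided Benjamini-Hochberg adjusted p-values over all genes tested, with a threshold of 0.05. The p-values rest on the spread of 2 pairs, which edgeR moderates with the spread of the other genes tested. The pairing comes from the labels, which number the precursor cells of 2 mice; libraries with 1 number deviated together (correlation across genes 0.726). The fit was tested on simulated data, where it missed most small changes, so a gene that was not called may still have changed. Alternatives used DESeq2 1.42.0, limma 3.58.1, other scaling, no filter, no pairing and leaving out libraries. Within-pair log2 values use a prior count of 2. Counting intervals (exact, 95%) and CPM cover or reflect counts only. Exon overlap and positions come from GENCODE M21, near-identical models from BLAST 2.17.0 (identity of 95% or more, an alignment of 100 bases or more that covers 50% of the shorter of both transcripts).

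The members and lists were chosen with earlier results of these data known. All members are named; of the other pathway genes, up to 4 called per direction with the smallest p, or 2 if none was called; some genes that this rule names are not reported here. Marker lists for T and NK cells, erythroid, stromal and mature osteoclast cells had summed levels of 8.25 to 11.5, 53.3 to 125, 44.6 to 69.3 and 346 to 515 CPM.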

Additional observations from a re-analysis of the deposited data

Results flagged for a closer look

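Lss and Acss2 went opposite ways with DKK1 in the 2 preparations, each beyond its 95% counting interval in both pairs. Values beyond that interval were common: 9 of the 29 members in precursor cells 1 and 12 in precursor cells 2, against 47.3% and 44.8% of all genes tested, so this alone does not set both genes apart. The log2 change of Lss was -0.11 (counting interval -0.22 to -0.01) in precursor cells 1 and 0.57 (0.40 to 0.75) in precursor cells 2, a difference of 0.69. That of Acss2 was 0.48 (0.32 to 0.64) and -0.62 (-0.83 to -0.41), a difference of -1.10. With 1 pair per preparation the difference itself was not tested. Acss2 held 36.5% of the summed counts of itself and its overlapping models, Lss 99.1%. How many reads these models share was not measured.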

How the results depend on the processing

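With DKK1, 0 members were called under every alternative run (other scaling, no filter, DESeq2, limma-voom, no replicate block, each library left out). Signs turned for Nsdhl (-0.0074 with DESeq2, -0.001 with no replicate block) and Acss2 (-0.062 and -0.0068), and the fit without the pairing changed no call of a member. Without 1 library, preparation and treatment are no longer balanced; the precursor cells term is then dropped, since 3 libraries leave no residual degree of freedom. The median log2 change then ran from -0.26 (without DKK1 1) to 0.28 (without PBS 1). The ranges over the 4 left-out libraries were: Acat2 -0.36 to 0.24, Hmgcs1 -0.090 to 0.14, Pmvk -0.48 to 0.37, Mvd -0.54 to 0.44, Idi1 -0.35 to 0.37, Fdps -0.52 to 0.48, Fdft1 -0.26 to 0.26, Sqle -0.25 to 0.77, Lss -0.41 to 0.95, Cyp51 -0.53 to 0.52, Msmo1 -0.17 to 0.75, Nsdhl -0.20 to 0.18, Hsd17b7 -0.62 to 0.52, Sc5d -0.18 to 0.20, Dhcr7 -0.21 to 0.034, Srebf2 -0.14 to 0.24, Scap -0.20 to 0.015, Insig1 -0.26 to 0.17, Stard4 -0.18 to 0.52, Acly -0.016 to 0.040, Acss2 -0.51 to 0.37, Me1 -0.96 to 1.26, Acaca -0.58 to 0.43, Fasn -0.70 to 0.38, Elovl6 -0.63 to 0.17, Fads1 -0.42 to 0.28 and Fads2 -0.42 to 0.40.

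Between the preparations, the members called lower numbered 16 with no filter, 18 with DESeq2, 20 with other scaling, limma-voom or no treatment term, and 16 to 18 with 1 library left out, and 0 were called higher in any. Acat2, Lss, Msmo1 and Elovl6 lost their call with no filter, and Acat2 and Elovl6 with DESeq2. The median log2 difference was -0.66 with no filter and -0.65 to -0.60 with 1 library left out. Signs near 0 turned for Ebp (0.0047 with RLE scaling and with DESeq2; -0.051 to 0.034 without 1 library), Acly (-0.014 with no filter; -0.015 to 0.038) and Scap (-0.038 to 0.18). Over all genes, DKK1 calls numbered 9 by edgeR, 10 with RLE scaling, 46 with DESeq2, 2 with limma-voom and 0 with no filter, with no replicate block or with a library left out. Preparation calls numbered 5905, 3507 with no filter and 3194 to 4570 with a library left out. The rank order of levels within single libraries correlated with the mean order at 0.984 to 0.996. The comparison without the 7 genes that held under 90% of the counts of their models was chosen after seeing the data.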
